A study of Mus musculus with 8 samples.

Results

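The genes described here are 10 genes best known from cartilage: Col2a1, Col9a1, Col9a2, Col9a3, Col11a1, Col11a2, Acan, Hapln1, Mia and Wwp2. They were chosen by name from 27828 gene names on the array, with earlier results of these data known. Agc1 and Mia1 were taken as older names of Acan and Mia. The array carried 21 probes for the 10 genes, of which 20 were measured above background on enough arrays to be tested. At least 1 probe of each of the 10 genes was among these. RNA came from dorsal pancreatic epithelia dissected by hand from mouse embryos at e12.5 and was hybridised to single-colour Agilent arrays. The mutant (MUT) embryos were Sox9fl/fl; Pdx1-Cre, and the wild-type (WT) embryos were Sox9fl/fl littermates, so that the controls also carried the floxed Sox9 alleles but no Cre. The floxed line had a mixed FVB/N and C57Bl/6J background and the Cre line a C57Bl/6J background. Each group had 4 arrays, and each RNA sample was pooled from 3 embryos, although the design text speaks of 3 biological replicates. Pdx1-Cre acts in the pancreatic epithelium and not in the mesenchyme around it, and cells that escape recombination keep Sox9.

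Cartilage matrix is built on fibrils of collagen II, a homotrimer of the Col2a1 chain, with collagen XI inside the fibril and collagen IX on its surface. Aggrecan, encoded by Acan, is a large proteoglycan held on hyaluronan by link protein, the product of Hapln1. In chondrocytes the transcription factor Sox9, with Sox5 and Sox6, activates many of these genes. In the embryonic pancreas Sox9 is known as a factor that maintains epithelial progenitors.

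Each value below is a log2 processed signal minus the 75th percentile of its array, so that 0 is the signal below which 75% of spots lie. Levels of different probes cannot be set against each other. Differences are MUT minus WT, in log2 units. The main test was limma's moderated test with Benjamini-Hochberg adjustment over 18506 genes and a threshold of 0.05.

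Some genes have several probes that overlap or gave different results, so probes of 3 genes are shown first, 5′ to 3′ and with positions on mm8. Whether the position of a probe bears on its result was not tested. The first 2 Mia probes overlap, with the 30 shared bases in capitals, and the third lies apart from them. The listed position of the second runs over 394 bases for a probe of 60 bases.
Mia probe 1, chr7:26888946-26889005, minus strand: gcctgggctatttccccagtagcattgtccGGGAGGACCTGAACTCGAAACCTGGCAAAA
Mia probe 2, chr7:26888582-26888975, minus strand: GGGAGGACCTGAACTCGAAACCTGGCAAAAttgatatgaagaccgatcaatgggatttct
Mia probe 3, chr7:26889492-26889551, minus strand: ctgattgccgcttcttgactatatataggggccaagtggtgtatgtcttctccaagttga
The 2 measured Col2a1 probes share 40 of 60 bases, again in capitals, and gave different results.
Col2a1 probe 1, chr15:97804088-97804147, minus strand: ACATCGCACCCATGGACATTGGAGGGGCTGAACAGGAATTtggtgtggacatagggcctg
Col2a1 probe 2, chr15:97804108-97804167, minus strand: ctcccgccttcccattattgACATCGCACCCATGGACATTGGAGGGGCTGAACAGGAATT
The dimmer of the Col11a2 probes is shown because it disagreed with the brighter one. Its capitals mark 6 codons of the form GGN, which encode glycine, at a spacing of 9 bases, the repeat that all collagen triple helices have.
Col11a2 probe 2, chr17:33662796-33662962, plus strand: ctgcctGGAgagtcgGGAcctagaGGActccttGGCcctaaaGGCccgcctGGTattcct

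Sox9 itself, the deleted gene, had log2 signals of 3.01, 2.13, 1.82 and 2.19 in WT samples 1 to 4 and of -0.61, -1.79, -0.0057 and 0.77 in MUT samples 1 to 4. The groups did not overlap (difference -2.70, limma adjusted p = 0.0253), and Sox9 was well above background on all 8 arrays. Its call was kept in 13 of 19 alternatives, and in 4 of 8 fits that left out a sample (adjusted p at most 0.0732). Whether its probe lies in the deleted part was not tested. The 75th percentile of the processed signal ran from 372 to 640 over the arrays, and 59.4% to 77.7% of spots were well above background. The dissected tissue expressed 24 of 24 epithelial genes listed, and also mesenchymal genes: Pdgfra and Col1a1 were well above background on all 8 arrays.

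Of the 10 genes, 6 fell in the Sox9 mutant: Mia, Col9a1, Col9a3, Col11a2, Acan and Hapln1. None rose, and Col2a1, Col9a2, Col11a1 and Wwp2 did not pass the threshold. Over all genes tested 3.81% were lower and 1.56% higher in the mutant. The median log2 difference was -1.36 over the 10 genes and 0.016 over all genes. The 10 genes were chosen with earlier results of these data known, so these shares and medians are no test of the set. In the main test the change divided the chains of single collagens, since 2 of the 3 collagen IX chains and 1 of the 2 collagen XI chains fell. The call of Col9a3 was kept in only 10 of 19 alternatives, and that of Col11a2 rested on its brighter probe. Set against epithelial genes of the same array, as described below, both genes overlapped between groups.

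**Figure D1:**
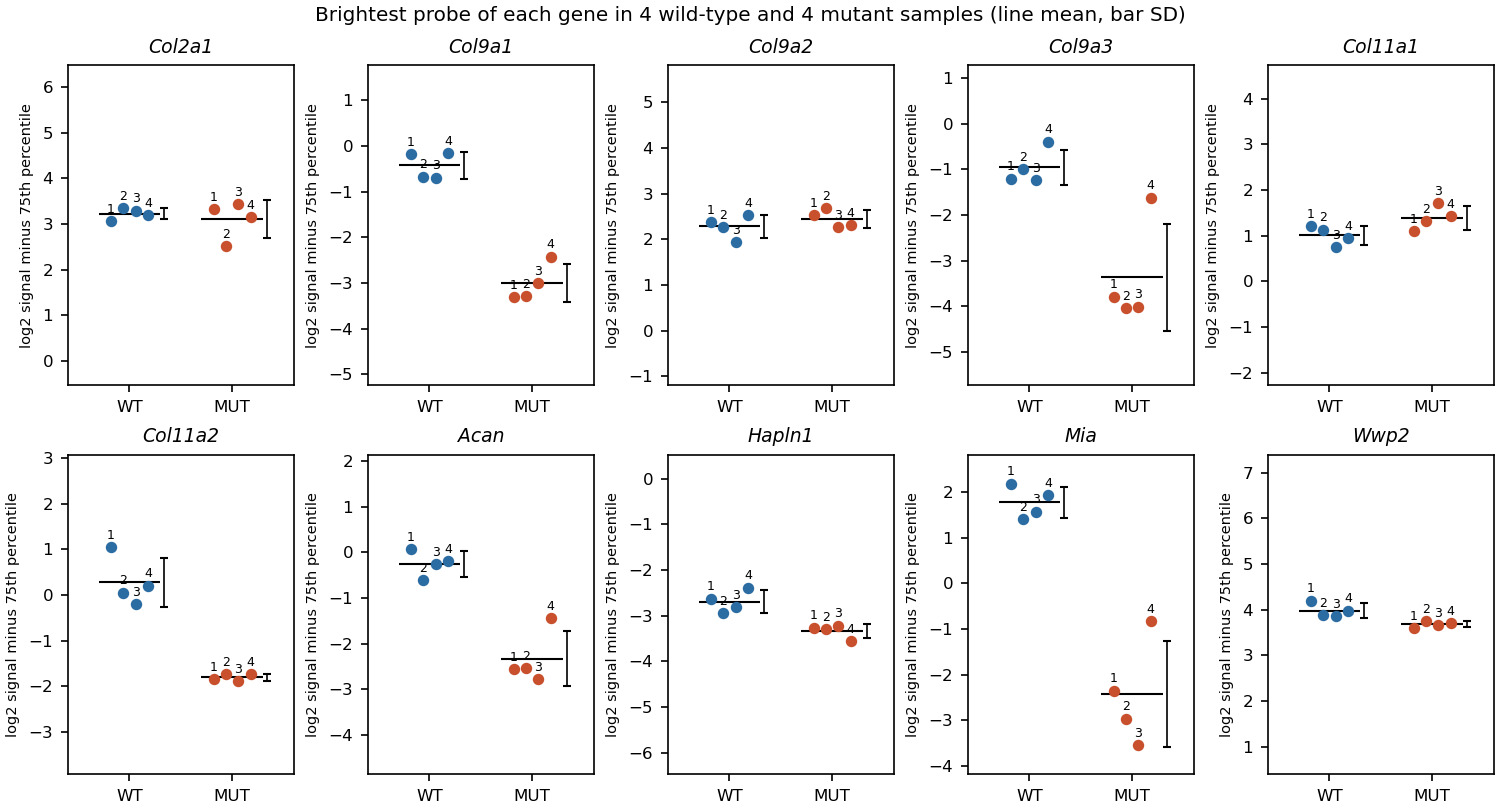
Log2 signal minus the array's 75th percentile for the brightest measured probe of each gene; numbered points are the samples, lines the means and bars the SD of 4 samples, and each panel spans the same number of log2 units. WT and MUT points of Mia, Col9a1, Col9a3, Col11a2 and Acan lie apart, while those of Col2a1, Col9a2 and Col11a1 overlap.

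Collagen IX is a heterotrimer of 1 chain each from Col9a1, Col9a2 and Col9a3. The Col9a1 probe lies at bases 24206120 to 24206179 of chromosome 1, on mm8 as all positions here. Its log2 signal was -0.19, -0.68, -0.69 and -0.16 in WT samples 1 to 4 and -3.31, -3.29, -3.01 and -2.43 in MUT samples 1 to 4. All MUT samples lay far below all WT samples. The mean went from -0.43 ± 0.30 (SD, n = 4) to -3.01 ± 0.41 (SD, n = 4), a difference of -2.58 (SE 0.233, limma adjusted p = 0.00645), or 5.99-fold lower. This p-value was the 9th smallest of the 18506 genes. The difference was -2.33, -2.18 and -3.12 within the 3 array slides. Slide 1 held WT sample 2 and MUT sample 3, and slide 2 held WT sample 3 and MUT samples 1 and 4. Slide 3 held WT samples 1 and 4 and MUT sample 2. Differences within a slide therefore rest on single arrays in at least 1 group.

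Col9a3, at bases 180545256 to 180545838 of chromosome 2, had log2 signals of -1.21, -1.0, -1.24 and -0.40 in the WT samples and of -3.79, -4.05, -4.01 and -1.62 in the MUT samples. The groups did not overlap, and MUT sample 4 stood well above the other MUT samples. The difference was -2.41 (SE 0.534, limma adjusted p = 0.0406), or 5.30-fold lower. The call was kept in 10 of 19 alternatives. It was lost when dim probes were kept in (-2.41, limma adjusted p = 0.0926), with the slide as a block (-2.54, adjusted p = 0.0555) and in 7 of 8 fits that left out a sample, where the difference was -2.50 to -2.18. Without MUT sample 4 the difference was -2.99 with a limma adjusted p of 0.00147.

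Col9a2, at bases 120552728 to 120552787 of chromosome 4, had log2 signals of 2.38, 2.27, 1.94 and 2.54 in the WT samples and of 2.53, 2.68, 2.27 and 2.32 in the MUT samples. The groups overlapped almost completely. The difference was 0.17, with a 95% interval of -0.20 to 0.53 (limma adjusted p = 0.708), an interval that leaves out a fall of the size seen for the other collagen IX chains. The change of Col9a1 differed from that of Col9a2 by -2.75, and the change of Col9a3 differed from it by -2.58. Each of these differences had the smallest p the design allows, 0.0286, in a two-sided exact test that permuted the group labels in all 70 ways (adjusted p = 0.0343 over the 6 such differences computed). Col9a1 and Col9a3 changed by amounts 0.18 apart (exact p = 0.771). The adjustment takes no account of how the 6 pairs were chosen. These tests use the same values as the results on the single genes and are no separate support for them.

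Collagen XI is a heterotrimer that contains the Col11a1 and Col11a2 chains. The brighter Col11a2 probe, at bases 33676507 to 33676566 of chromosome 17, had log2 signals of 1.04, 0.047, -0.20 and 0.20 in the WT samples and of -1.84, -1.74, -1.89 and -1.73 in the MUT samples. The MUT samples lay within a narrow range, below every WT sample. The difference was -2.07 (SE 0.247, limma adjusted p = 0.00813), or 4.21-fold lower.

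The dimmer Col11a2 probe, printed above, was well above background on all 8 arrays. Its mean log2 signal was only -3.64 in the WT samples and -3.74 in the MUT samples. The lowest signal well above background on an array was -5.68 to -4.59, so a fall could be measured here only over a small range. The log2 difference at this probe was -0.10 (adjusted p = 0.963 over 27389 probes in limma). The changes at the 2 probes differed by -1.98 (exact p = 0.0286, adjusted over the 6 differences 0.0343). Among genes with several measured probes, only Col11a2 and Col2a1 had their probes compared in this way. The adjustment takes no account of how these pairs were chosen. With the mean of both probes as the gene's value, Col11a2 had a difference of -1.09 and an adjusted p of 0.0549, which ends the call.

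Col11a1, at bases 114211238 to 114211297 of chromosome 3, had log2 signals of 1.20, 1.13, 0.74 and 0.95 in the WT samples and of 1.10, 1.31, 1.72 and 1.42 in the MUT samples. The groups overlapped, with 3 of the MUT samples above all WT samples. The difference was 0.38 (95% interval 0.0018 to 0.76, limma adjusted p = 0.263). A second, dim probe had a difference of 0.68 that did not pass either. The change of Col11a2 differed from that of Col11a1 by -2.45 (exact p = 0.0286, adjusted over the 6 differences 0.0343).

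Col2a1, the chain of the main cartilage fibril, did not pass the threshold. Probe 1, which is spotted 10 times on each array, had log2 signals of 3.07, 3.34, 3.29 and 3.20 in the WT samples and of 3.32, 2.51, 3.44 and 3.15 in the MUT samples. MUT sample 2 was the lowest, and the other MUT samples lay within or above the WT range. The difference was -0.12 (95% interval -0.58 to 0.35, limma adjusted p = 0.869). The SD between its spots on 1 array was 0.041 to 0.10. Its sign turned to 0.082 without MUT sample 2 and to 0.022 with median scaling.

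Probe 2 of Col2a1 had log2 signals of 2.95, 2.97, 2.95 and 2.89 in the WT samples and of 2.22, 1.39, 2.38 and 2.47 in the MUT samples. Every MUT sample lay below every WT sample. The difference was -0.83 (SE 0.229), which gave an exact p of 0.0286 and an adjusted p of 0.0951 over all probes in limma. It passed with the authors' value table (-0.82, adjusted p = 0.0484) and with normexp background correction (-0.82, adjusted p = 0.0464), and did not pass with the slide as a block (adjusted p = 0.0576). The changes at the 2 overlapping probes differed by 0.71, and on each MUT array the gap between them was wider than on each WT array (exact p = 0.0286, adjusted over the 6 differences 0.0343). The remaining Col2a1 probe was not well above background on any of the 8 arrays and was not tested.

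**Figure D2:**
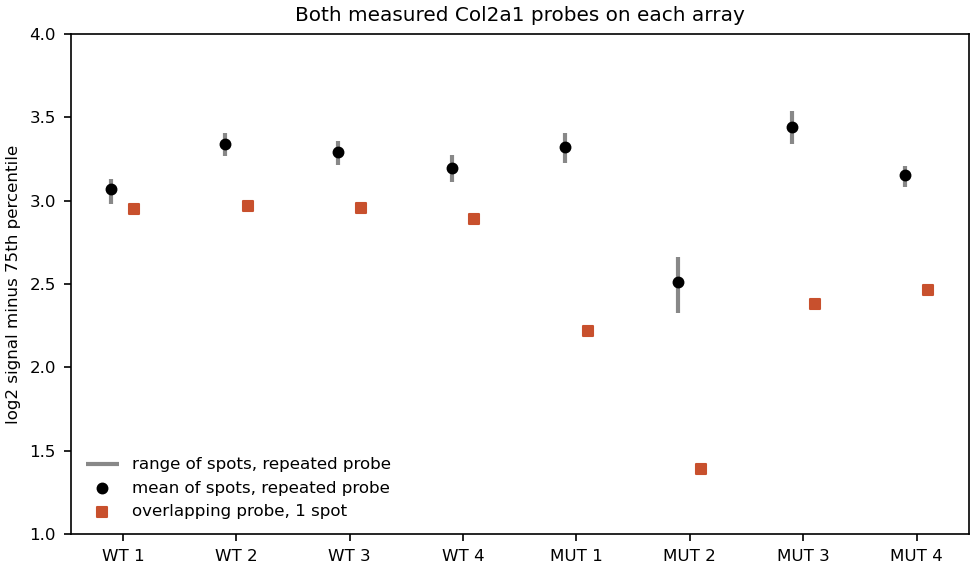
Log2 signal minus the array's 75th percentile of both measured Col2a1 probes on each array; black points are means and grey bars the range of the repeated spots of probe 1 (9 spots used on MUT 2 and 10 on the others), squares the single spot of probe 2. Probe 2 lies at 2.89 to 2.97 on the WT arrays and at 1.39 to 2.47 on the MUT arrays, while probe 1 overlaps between groups.

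Acan, at bases 78988368 to 78988428 of chromosome 7, had log2 signals of 0.066, -0.61, -0.26 and -0.20 in the WT samples and of -2.56, -2.54, -2.78 and -1.44 in the MUT samples. The groups did not overlap, and MUT sample 4 was again the highest of its group. The difference was -2.08 (SE 0.296, limma adjusted p = 0.00979), or 4.22-fold lower. Within the slides it was -2.17, -1.73 and -2.47.

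Hapln1, at bases 90082263 to 90082322 of chromosome 13, had log2 signals of -2.63, -2.95, -2.81 and -2.38 in the WT samples and of -3.26, -3.30, -3.22 and -3.56 in the MUT samples. The groups did not overlap, though the gap was small. The difference was -0.64 (SE 0.150, limma adjusted p = 0.0480), or 1.56-fold lower. The call was kept in 3 of 19 alternatives and in none of the 8 fits that left out a sample (adjusted p 0.0522 to 0.114), and the difference was -0.32 (adjusted p = 0.177) in the authors' value table. A second Hapln1 probe had a difference of -0.53, with overlapping groups.

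Mia encodes a small secreted protein of the cartilage matrix, first known from melanoma cells. It had the largest fall of the 10 genes and the 5th largest among all genes tested. Probe 1 had log2 signals of 2.18, 1.41, 1.57 and 1.93 in the WT samples and of -2.35, -2.96, -3.54 and -0.83 in the MUT samples. In processed signal these were 1681, 1644, 1563 and 2435 in the WT samples and 120, 67.0, 35.5 and 350 in the MUT samples. The groups were widely separated, with MUT sample 4 nearest to the WT samples. The mean went from 1.77 ± 0.35 (SD, n = 4) to -2.42 ± 1.16 (SD, n = 4), a difference of -4.19 (SE 0.525, limma adjusted p = 0.00813), or 18.3-fold lower.

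The other Mia probes gave differences of -3.98 and -3.94 (adjusted p = 0.0107 and 0.0102 over all probes in limma). Probes 1 and 2 share 30 bases, but probe 3 shares none with probe 1. Within the slides the difference at probe 1 was -4.95, -3.16 and -5.01. The Mia family genes Mia2, Mia3 and Otor, which encode related proteins with an SH3-like domain, did not pass. Their differences were -0.025, -0.094 and 0.63.

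Wwp2 encodes a ubiquitin ligase of the Nedd4 type, whose gene hosts the cartilage microRNA miR-140. Its brightest probe, at bases 110446270 to 110446329 of chromosome 8, had log2 signals of 4.20, 3.88, 3.85 and 3.98 in the WT samples and of 3.60, 3.75, 3.66 and 3.70 in the MUT samples. The groups did not overlap but lay close together. The difference was -0.30 (95% interval -0.56 to -0.043, exact p = 0.0286, limma adjusted p = 0.186). It was the 7th of the 10 genes whose groups did not overlap, all lower in the mutant, where 7.98% of all genes were lower and 7.23% higher without overlap. The other 4 Wwp2 probes had differences of -0.29, -0.12, -1.35 and -0.46, and none passed.

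**Figure D3:**
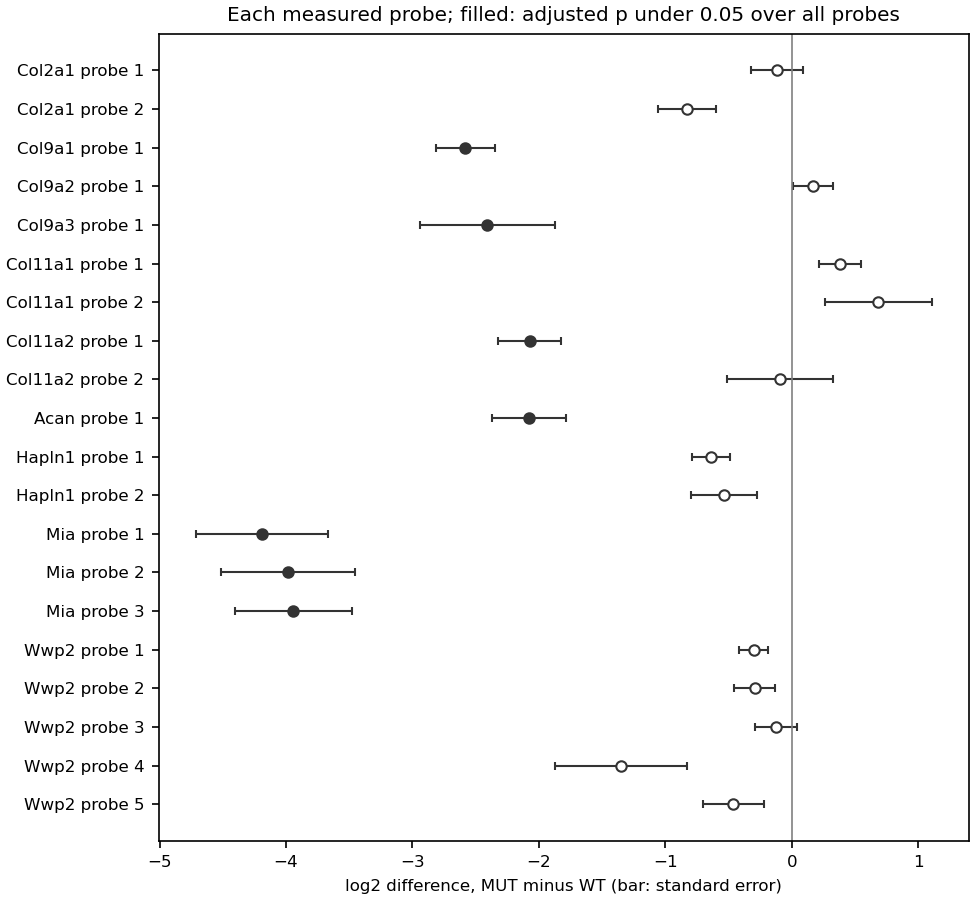
Log2 difference, MUT minus WT, with its standard error for each of the 20 measured probes, numbered from the brightest in WT within each gene; filled points have an adjusted p under 0.05 over 27389 probes in limma. The 7 filled points are all lower in MUT and belong to Mia (3 probes), Col9a1, Col9a3, Col11a2 and Acan; Hapln1 passed over genes but not over probes.

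Of the 20 probes tested, 7 were lower and 0 higher, where 2.88% of all probes were lower and 0.873% higher. Mia, Col9a1 and Acan kept their call in all 19 alternatives tried, and Col11a2 in 18 of 19. In the authors' value table the falls were smaller, at -3.41 for Mia, -1.84 for Col9a1, -1.66 for Col11a2, -1.60 for Col9a3 and -1.58 for Acan. By it 5 of the 10 genes were lower and 0 higher, against 4.08% and 3.02% of all genes. With the slide as a block 4 were lower and 0 higher, against 4.65% and 2.33% of all genes.

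Epithelial genes as a whole were lower in the mutant, a shift that stands beside every fall above. Of 24 epithelial genes, 21 fell and 3 did not pass, with a median of -2.21. Cdh1, the epithelial cadherin, had a difference of -2.51 (limma adjusted p = 0.0140). The mean log2 signal of the list was 1.17, 0.75, 0.93 and 0.86 in WT samples 1 to 4 and -0.94, -1.64, -1.27 and -0.24 in MUT samples 1 to 4 (difference -1.95, exact p = 0.0286). MUT sample 4 was the highest MUT sample here as it was for Sox9, Mia, Acan, Col9a1 and Col9a3. For Col11a2 it hardly differed from MUT sample 2 (-1.73 and -1.74). For Hapln1 it was the lowest MUT sample (-3.56). In these bulk samples fewer epithelial cells and less RNA per cell cannot be told apart.

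The 10 genes were therefore also set against the mean of the 24 epithelial genes of the same array. On that scale Mia had values of 1.0, 0.65, 0.65 and 1.07 in the WT samples and of -1.42, -1.32, -2.27 and -0.60 in the MUT samples. Mia thus fell by more than the epithelial genes did, by 2.24 in log2 units and with no overlap (exact p = 0.0286). Col9a1 fell by 0.63, with no overlap (exact p = 0.0286, limma adjusted p = 0.147). Of the 24 epithelial genes themselves, 14 lay below 0 on this scale and 10 above, with a median of -0.26. The lowest of them was Cldn3 (-0.80), so the fall of Col9a1 lay within the range of single epithelial genes, and that of Mia below it. A fall beyond the epithelial mean was not particular to Mia. Of 14 pancreatic progenitor genes tested, limma called 4 lower and 3 higher on this scale, and 7 did not pass. The lowest of that list were Nkx6-1 (-1.71) and Pdx1 (-1.13).

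The differences of Col9a3, Acan and Col11a2 on that scale were -0.46, -0.13 and -0.12 (exact p = 0.286, 0.486 and 0.771), with overlapping groups. Col2a1, Col9a2, Col11a1 and Wwp2 were higher relative to the epithelial genes, by 1.83, 2.12, 2.33 and 1.65 (exact p = 0.0286 each). The median over all 18506 genes on this scale was 1.97, so rises of this size are those of genes in general. Hapln1 was higher by 1.31, with overlap (exact p = 0.0571).

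Limma called 1 of the 10 genes lower and 5 higher on this scale, against 0.211% and 96.7% of all genes. Every gene carries the same subtracted epithelial mean, and limma gave all genes 1 shared SE of 0.433, so that its adjusted p-values here do not follow each gene's own spread and the exact p-values are given first. The count of lower genes was 2 without MUT sample 4.

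**Figure D4:**
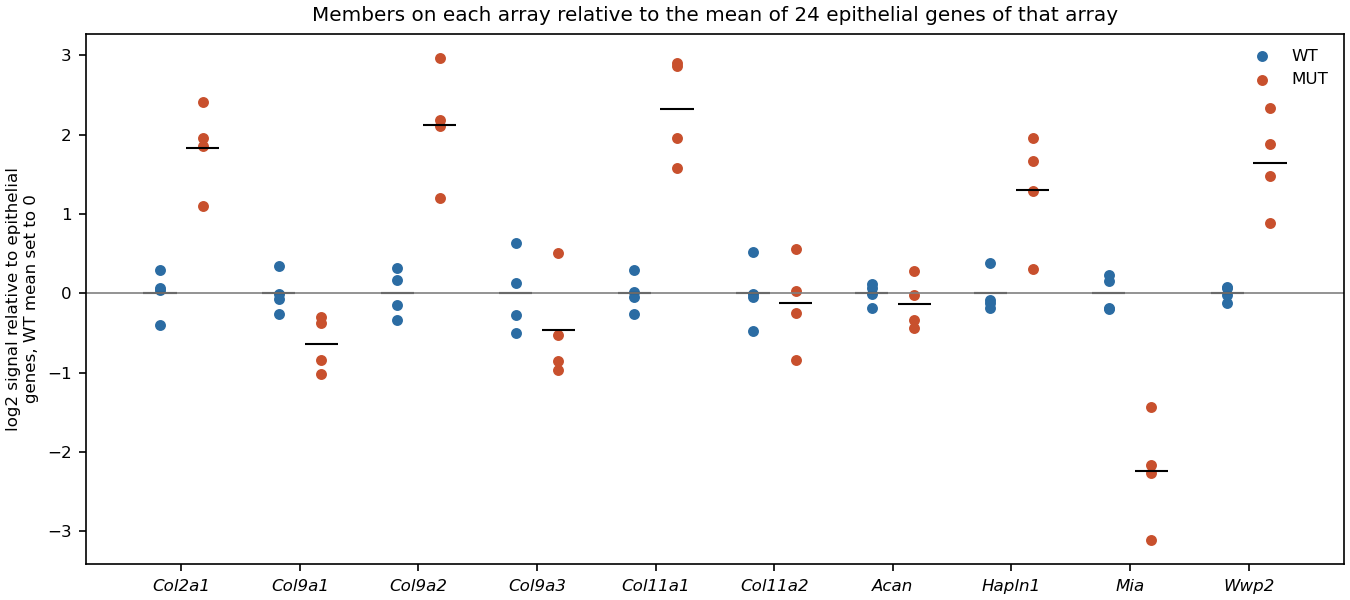
Log2 signal of each gene relative to the mean of 24 epithelial genes on the same array, with the WT mean of each gene set to 0; points are samples and lines group means. All MUT points of Mia lie below the WT points, those of Acan and Col11a2 overlap with WT, and those of Col2a1, Col9a2, Col11a1 and Wwp2 lie above.

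Other genes of the cartilage program did not pass the threshold. Of 25 further cartilage genes, 24 were on the array, 16 could be tested and none passed in either direction, with a median difference of 0.057. Sox6, a partner of Sox9 in chondrocytes, had a difference of 0.19 (limma adjusted p = 0.680). Matn4, a matrilin, had the lowest value, -2.02 (adjusted p = 0.0948), close to those of Acan and Col11a2, and -0.071 relative to the epithelial genes. The cartilage-restricted genes Cnmd and Ucma were not well above background on any array, and Matn1, Matn3 and Col10a1 were so on 1 WT array and no MUT array. Scrg1 was so on 3 WT arrays and no MUT array, Prg4 on 1 WT array and no MUT array, and Sox5 on 1 WT and 1 MUT array. All of these were too rarely above background to be tested. Matn4, Chad and Epyc, also known from cartilage, were well above background on all 8 arrays, and Comp on 2 WT and 2 MUT arrays.

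Of 15 collagens of other types tested, 2 rose, none fell and 13 did not pass. Their median difference was 0.57, and 14 of the 15 were above 0, as were 9779 of all 18506 genes. Col1a2 and Col5a2, fibrillar collagens of mesenchyme, rose by 0.67 (limma adjusted p = 0.0430) and 0.58 (adjusted p = 0.0262). Of 15 genes of collagen maturation, 3 rose: Lox, which crosslinks collagen (1.15, adjusted p = 0.0279), and the prolyl hydroxylase subunits P4ha2 (0.81, adjusted p = 0.0102) and P4ha1 (0.53, adjusted p = 0.0310).

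Among 7 genes of hyaluronan and its partners, 1 fell: Has3, a hyaluronan synthase, which was not well above background on any MUT array (limma adjusted p = 0.0417). Of 10 matrix proteases and inhibitors, Adamts1, which can cleave aggrecan, fell (-1.08, adjusted p = 0.00813), Mmp9 (1.46, adjusted p = 0.0253) and Mmp2 (0.74, adjusted p = 0.0329) rose, and 7 did not pass. None of 6 collagen receptors and none of 7 further Nedd4-type ligases passed in limma.

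Markers of other cells in the dissection moved beside these genes. Of 14 mesenchymal genes, 3 rose and none fell (median 0.59), among them Pdgfra (0.80, limma adjusted p = 0.0349), whose call was kept in 10 of 19 alternatives and in 2 of 8 fits without a sample. The mean level of that list was 2.53 to 2.87 over WT samples and 3.07 to 3.39 over MUT samples. Of 8 tested neural crest and glial genes, 3 fell: Erbb3 (-2.36), Sox10 (-1.54) and Foxd3 (-0.99), with list means of -1.18 to -0.89 in WT and -1.98 to -1.65 in MUT samples. Of 7 macrophage genes 4 rose, and of 7 endothelial genes 2 rose.

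The other sources of cartilage genes near the embryonic pancreas are notochord and sclerotome. Shh was not well above background on any array, T was so on 1 WT and 3 MUT arrays, Chrd, Nog and Foxj1 were so on all 8, and none of 4 notochord genes passed in limma. Pax1 was above background on 1 array and Pax9 on 1, while Uncx, Meox1, Meox2, Foxc2 and Scx were so on all 8, and 1 of 5 tested sclerotome genes, Meox1, rose (0.72, adjusted p = 0.0361). The part of these cell types in the results on the 10 genes was not tested.

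**Figure D5:**
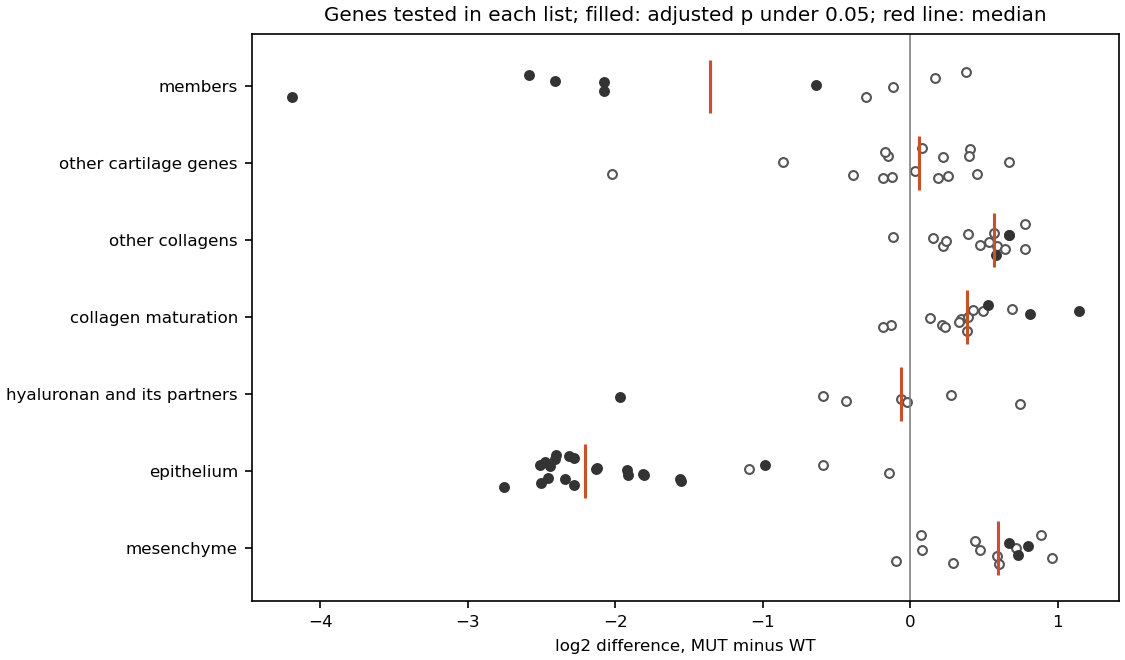
Log2 difference, MUT minus WT, of the genes tested in the 10 cartilage-type genes (members) and 6 other gene lists; each point is a gene, filled points have a limma adjusted p under 0.05, red lines are medians, and the vertical spread within a list has no meaning. The medians are -1.36 for the 10 genes, 0.057 for other cartilage genes, 0.57 for other collagens and -2.21 for epithelial genes.

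Across the 8 arrays the falling genes followed each other. Pearson's r with Mia was 0.99 for Acan, 0.97 for Col9a1, 0.95 for Col9a3, 0.93 for Col11a2 and 0.78 for Hapln1. Of the genes that did not pass, Wwp2 had an r of 0.83 with Mia, Col2a1 0.19, Col9a2 -0.37 and Col11a1 -0.69. These values hold the difference between the groups and describe 8 arrays only. The genes whose pattern was most like that of Mia over the 8 arrays were Entpd3, Tmem184a, Gpx2, Cldn3 and St14 (r = 0.999 each). Those most like Col2a1 were Sft2d1 (0.962), Ate1 (0.954) and Peg10 (0.954).

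Promoter windows of 250 bases before the gene start (RefSeq, GRCm38.p6) were given for 8 of the 10 genes, in 9 windows. They were searched on both strands for short motifs of the kind that Sox proteins bind. The letters ACAATG were in 10.7% of all 32851 windows of this length, the letters ACAAAG in 16.5% and the letters AACAAT in 9.42%, with overlaps allowed, and 29.6% of windows held at least 1 of the motifs. None of the 9 windows of these genes held a match. This says only that these letters are not in these windows.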

How the data were processed

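The authors scanned with Agilent Feature Extraction 9.5.3.1, per the file headers, and the deposited processed signal is a background-subtracted intensity on a linear scale. The authors' deposited value table holds normalized intensity values on a linear scale; its rows matched the line numbers of the scanner files (Spearman 0.999 or more) and every column had a median of 227. It was used as an alternative, and limma is named in the submitters' processing notes.

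From the processed signal, control spots and outlier-flagged spots were left out, log2 was taken and each array's 75th percentile subtracted. Spots of a probe were averaged, probes well above background on at least 4 of 8 arrays were kept, and the kept probe with the highest mean stood for its gene. Groups were compared with lmFit and eBayes (limma 3.58.1, R 4.3.3), with no covariate. The script was tested on simulated data. Single values were compared with exact permutation tests.

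Members and gene lists were chosen with earlier results of these data known. Named genes are the members, Sox9, Cdh1, the lists' genes that passed or define a cell type, and the genes most like Mia and Col2a1. P-values measure the spread between pooled samples; the number of arrays limits the precision.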

Additional observations from a re-analysis of the deposited data

Results flagged for a closer look

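In 64 groups of 4 samples, 3 had a sample farther from the others than Dixon's test allows, and chance flags about 1 in 20 such groups. For Col9a3, MUT sample 4 had a log2 signal of -1.62, above the other MUT samples at -4.05 to -3.79. For the Wwp2 probe at bases 110347029 to 110347088 of chromosome 8, WT sample 3 had a log2 signal of -2.80, above the other WT samples. For the Col2a1 probe at bases 97829119 to 97829178 of chromosome 15, WT sample 1 had a log2 signal of -5.64, but this probe was not well above background on any array.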

How the results depend on the processing

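Mia, Col9a1 and Acan kept direction and call in all 19 alternatives, and Col11a2 in all but the mean of its probes. Col9a3 kept its call in 10 and Hapln1 in 3. The count of the 10 genes that fell was 4 to 6, being 4 with no filter on dim probes, with the mean of probes and with the slide as a block, and 4 to 5 when 1 sample was left out. Col2a1 reversed to 0.022 with median scaling and to 0.082 without MUT sample 2, in neither case past the threshold, and ranged from -0.23 to 0.082 when 1 sample was left out.

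Over all genes the count of falls (706) was 448 with median scaling, 377 with no filter and 333 to 652 when 1 sample was left out. The count of rises (288) was 550 with normexp background, 135 with median scaling, 559 with the authors' value table, 42 with no filter, 575 with the slide as a random block, 659 with array weights and 39 to 324 when 1 sample was left out. Relative to epithelial genes, 1 to 2 of the 10 genes were lower when 1 sample was left out. The causes were not tested.

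Same-numbered samples did not deviate together (correlations -0.35, -0.30, -0.0048 and 0.088). They lay on different slides in every case, so these correlations cannot show whether the numbers pair the samples. The highest correlation, 0.57, was between WT sample 3 and MUT sample 1, which shared a slide. With the replicate block there were 313 falls and 27 rises, and 5 of the 10 genes fell. Dim probes, such as those of Hapln1 and the second Col11a2 probe, limit what could be measured there.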
